A study of Mus musculus with 354 samples.

Results

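The vasopressin receptor gene Avpr1a, the angiotensinogen gene Agt and the angiotensin receptor gene Agtr1a were followed in mouse liver across 45 inbred strains of the Collaborative Cross. These 3 genes were taken by name, and every array feature annotated to one of them alone was used. That gave 4 probe sets of 42597 on the array, of which Avpr1a had 2. After 1 probe set was kept per gene and dim genes were left out, the 3 genes were among 14125 genes tested. Agt was the only one of the 3 that passed the test of a change over strains after tolvaptan, and it rose. That call was lost when the arrays of scan date 2 or of scan date 3 were left out, as were nearly all calls of other genes. All 3 differed between strains in Control livers, Avpr1a over the widest range.

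Avpr1a encodes the V1a receptor, which responds to arginine vasopressin in hepatocytes through Gq proteins, inositol phosphates and calcium, and drives glycogen breakdown. Agt encodes angiotensinogen, the plasma protein that the liver makes and that renin and then angiotensin-converting enzyme cut to angiotensin II. Agtr1a encodes the main rodent receptor for angiotensin II and is also coupled to Gq. Tolvaptan blocks a different vasopressin receptor, V2, the product of Avpr2, which acts in the kidney collecting duct.

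The study compared male mice given tolvaptan with mice labelled Control, which the design text calls vehicle-treated, after 24 h. There were 175 Tolvaptan and 179 Control livers, each on its own one-colour array. The mice were 8 to 10 weeks old at dosing and had been fasted for about 18 h before the liver was taken. All came from inbred lines descended from several founders, so animals of 1 strain share a genotype. Of the 90 groups, 85 held 4 animals, 4 held 3 and 1 held 2. The labels place the arrays on 6 scan dates, called scans 1 to 6 here. The tissue was a piece of the median lobe, so in these bulk samples fewer cells of a type and less RNA per cell cannot be told apart.

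The livers carried high levels of hepatocyte genes, for example albumin (Alb) at 13.63 ± 0.08 (SD, n = 179) on the log2 intensity scale in Control. Avpr2, the target of the drug, was too dim to be tested, with 1 of 354 arrays above the array median. Expression did not match the labelled strain in 34 arrays, 27 Control and 7 Tolvaptan, spread over 19 strains, and 22 of them were in scan 2. These arrays had a correlation under 0.5 with their own strain's profile over the 500 probe sets that best separate strains, at most 0.33, while all others had at least 0.65. They are called off-strain arrays below, were kept in the fit, and are named where a value rests on them.

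Reference sequences upstream of the genes' starts are shown for the member that rose and the member that varied most between strains. Each is the 250 bases before the annotated start in RefSeq's GRCm38.p6, 5′ to 3′ on the gene's strand, for Avpr1a chr10:122448249-122448498 on the plus strand and for Agt chr8:124569707-124569956 on the minus strand. Capitals mark matches to the letters searched for on both strands, CACGTG (E-box), TTANGTAA (D-box), AGGTCA (ROR half-site), TATAAA (the core promoter box) and TTCNNNGAA (STAT site).
Avpr1a: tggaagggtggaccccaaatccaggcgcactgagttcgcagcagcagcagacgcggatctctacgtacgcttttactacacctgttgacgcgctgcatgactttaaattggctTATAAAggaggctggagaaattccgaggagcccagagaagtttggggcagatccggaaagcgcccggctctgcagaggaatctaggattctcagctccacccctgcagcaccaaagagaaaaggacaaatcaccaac
Agt: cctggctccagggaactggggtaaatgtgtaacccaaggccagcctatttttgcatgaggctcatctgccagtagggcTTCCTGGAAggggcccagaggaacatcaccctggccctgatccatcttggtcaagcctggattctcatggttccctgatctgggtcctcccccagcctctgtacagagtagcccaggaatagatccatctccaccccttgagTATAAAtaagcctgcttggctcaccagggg
In Agt the letters TATAAA began 30 bases before the start and a TTCNNNGAA match 172 bases before it. In Avpr1a the only match was TATAAA, beginning 137 bases before the start. Of 32851 such windows, 12.4% held TATAAA, 7.02% TTCNNNGAA, 6.02% CACGTG, 2.06% TTANGTAA and 14.0% AGGTCA. None of the matches overlapped another. The table used here has no entry for Agtr1a. The reference describes 1 inbred genome, and sequence differences between the 45 strains were not analysed here. A match is a run of letters and says nothing about binding.

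The first comparison asked how far the genes' levels differ between strains in Control livers. Values are log2 intensities, in which a difference of 1 is a 2-fold difference, and levels of different genes are not compared because each probe set has its own brightness. All 4 probe sets lay above the array median in 354 of 354 arrays. The Control means of the 45 strains differed for all 3 genes in the limma fit, with adjusted p = 5.90e-11 for Avpr1a, 2.14e-20 for Agt and 1.82e-11 for Agtr1a. Adjustment was by Benjamini-Hochberg over the 14125 genes, and 74.9% of them passed this test, so passing it does not set the 3 genes apart.

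Avpr1a, the vasopressin receptor, had the widest strain range of the 3. Over the 179 Control animals its level ran from 3.53 through a median of 6.51 to 8.21. The scan-adjusted strain means ran from 4.34 in OR5612 to 7.44 in OR13421. Strains are placed by scan-adjusted means here and for the other genes, while means printed with an SD are unadjusted and can order differently. This range of 3.10, or 8.58-fold, was wider than that of 96.7% of genes tested, whose median range was 1.06. In OR5612 the 4 Control animals had 3.60, 4.14, 4.48 and 5.09, below every other Control group's mean. The next lowest strains were OR3609 at 5.28 ± 0.50 (SD, n = 4) and AU8043 at 5.43 ± 1.27 (SD, n = 4). OR13421, at the top, held animals at 6.37, 7.06, 7.92 and 8.21, and the lower 2 of these came from off-strain arrays. AU8033 at 7.39 ± 0.93 and IL16188 at 7.38 ± 0.61 (SD, n = 4 each) followed in scan-adjusted mean, with 2 and 1 off-strain arrays. Without the off-strain arrays OR13421 was still highest at 8.17, IL16188 followed at 7.77 and OR13067 at 7.73. AU8033 fell to 6.94, place 34 from the lowest of 45. The 3 lowest strains kept their places. In AU8043 the mean was pulled down by Control animal 391 at 3.53, beside others at 6.01, 6.02 and 6.17.

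The animals of a strain were themselves far apart in Avpr1a. The SD within strain and treatment was 0.65, larger than for 96.5% of genes tested, for which the median was 0.30. Of the 990 pairs of strains, 177 differed in Avpr1a after adjustment over the pairs. OR5612 at the low end differed from 40 of the other 44 strains, and OR13421 at the high end from 12. None of the 44 neighbours in the order of strains differed after adjustment. The largest step between neighbours, 0.84 from OR5612 to OR3609, had adjusted p = 0.214.

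The second, dimmer Avpr1a probe set also placed OR5612 lowest, at a Control mean of 4.25, but other strains changed places. OR773 was highest at 6.81, and OR13421 stood at place 38 from the lowest of 45. IL16513 was at place 2 from the lowest, against 17 on the brighter probe set, OR3609 at 5 against 2 and AU8043 at 7 against 3. Over the 45 strains its Control means had Pearson r = 0.84 and Spearman rho = 0.80 with those of the brighter probe set. Over the 354 arrays the values of the 2 probe sets had r = 0.77. These correlations describe 2 readings of the same RNA samples and carry no test.

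Agt, the renin substrate, had a narrower range and tighter groups. Its Control values ran from 10.24 through a median of 11.45 to 12.77. Strain means ran from 10.48 in OR3609 to 12.02 in OR13140, a range of 1.54 or 2.91-fold. The 4 Control animals of OR3609 had 10.24, 10.42, 10.42 and 10.47, and those of OR13140 had 11.88, 11.92, 12.06 and 12.07. These extreme strains did not overlap, and each was tight. They were picked as the ends of the order, so their separation is a description. By scan-adjusted mean, AU8027 at 10.82 and OR3393 at 10.88 were the next lowest. Their unadjusted means were 10.93 ± 0.15 and 10.91 ± 0.33 (SD, n = 4 each). By the same measure OR477 at 11.95 and AU8024 at 11.88 were the next highest, with unadjusted means of 11.92 ± 0.32 and 11.85 ± 0.63 (SD, n = 4 each). They held 1 and 2 off-strain arrays, and without those AU8024 was highest at 12.25 and OR477 second at 12.07. With an SD within groups of 0.26, 398 of the 990 pairs differed. OR3609 differed from 41 of the other 44 strains and OR13140 from 29, and again none of the 44 neighbours differed.

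Agtr1a, the angiotensin II receptor, ran from 7.70 through a median of 8.93 to 9.75 in Control animals. Its strain means ran from 7.97 in AU8016 to 9.35 in OR3393, a range of 1.38 or 2.60-fold. The 4 Control animals of AU8016 had 7.76, 7.97, 7.97 and 8.25, and those of OR3393 had 9.03, 9.06, 9.13 and 9.30. Both strains had no off-strain array, and their animals did not overlap, a description of strains picked as the ends of the order. OR13067 at 8.11 ± 0.28 and OR13421 at 8.43 ± 0.35 (SD, n = 4 each) were the next lowest, each with 2 off-strain arrays. AU8036 at 9.33 ± 0.23 and OR3415 at 9.14 ± 0.21 (SD, n = 4 each) were next to the top, and the scan adjustment raised OR3393 and OR3415. Without off-strain arrays the 3 lowest strains were OR13067 at 7.96, AU8016 at 7.98 and IL16750 at 8.11. In Agtr1a 161 of the 990 pairs differed, AU8016 differed from 39 strains and OR3393 from 12, and none of the 44 neighbours differed.

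**Figure D1:**
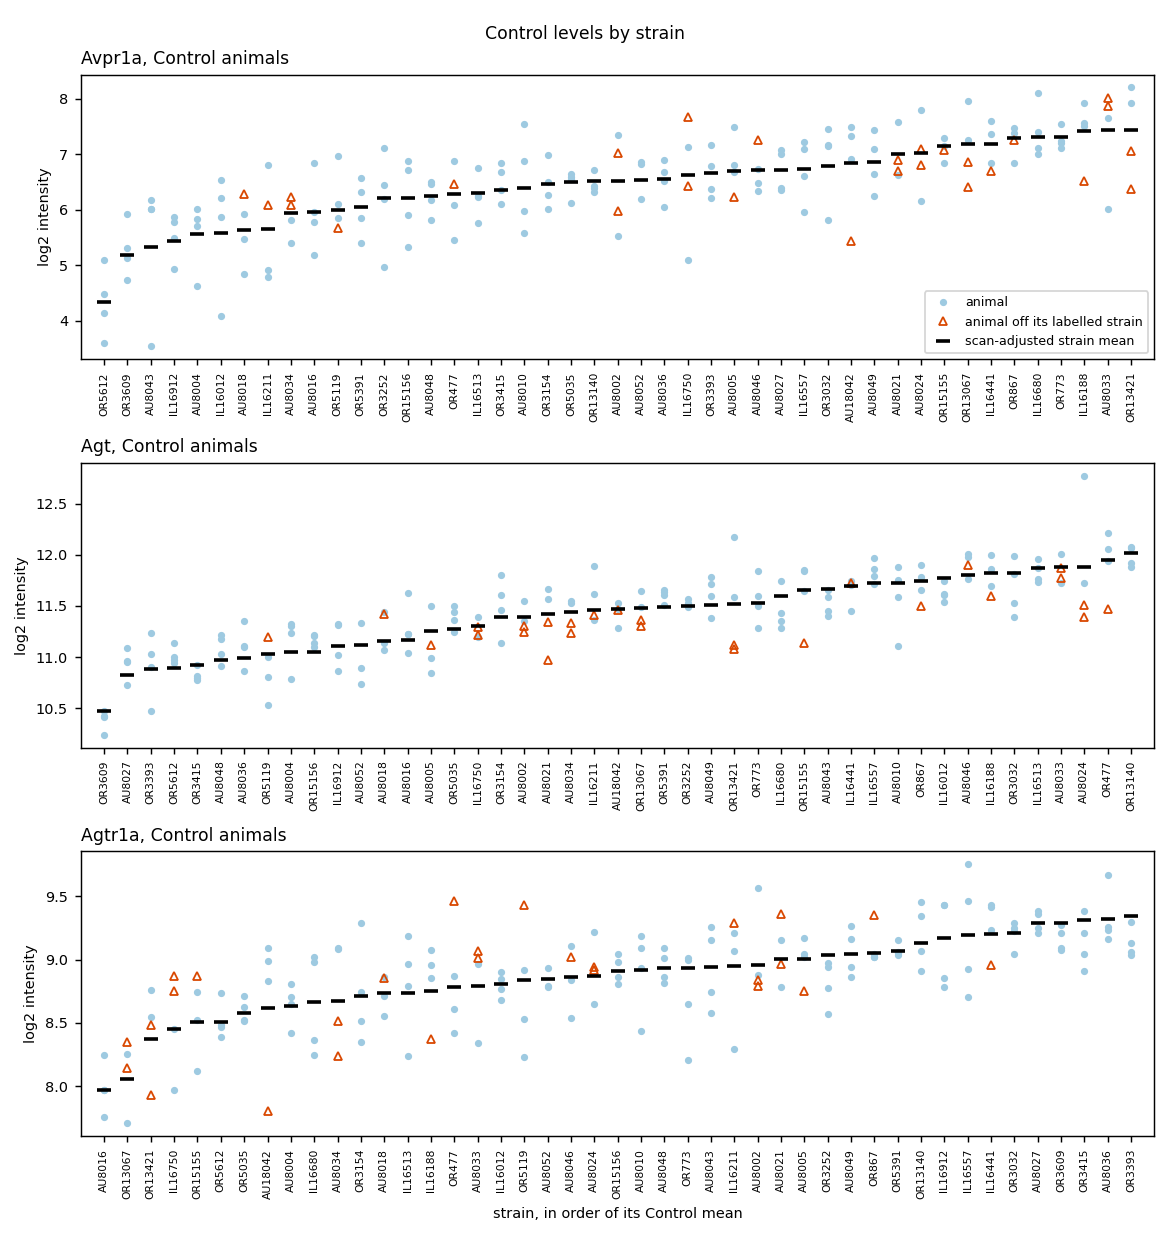
Log2 intensity of Avpr1a, Agt and Agtr1a in each Control animal (points, y axis), by strain in order of the scan-adjusted strain mean (black bars, x axis), with off-strain arrays as open triangles. Strain means ran from 4.34 to 7.44 for Avpr1a, from 10.48 to 12.02 for Agt and from 7.97 to 9.35 for Agtr1a, and neighbouring strains overlapped.

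The order of strains was largely kept under the drug. Control and Tolvaptan strain means had Pearson r = 0.86 for Avpr1a, 0.72 for Agt and 0.67 for Agtr1a over 45 strains. Spearman rho was 0.88, 0.67 and 0.58. Each Pearson value had permutation p = 1e-05 (two-sided, the smallest that 100000 resamples can give) and adjusted p = 3e-05 over the 9 relations tested in all. Without the 2 strains farthest from the median Control mean, r was 0.86, 0.62 and 0.51. Within scans 1, 2, 3 and 4, r was 0.71, 0.76, 0.65 and 0.89 for Avpr1a, and 0.56, 0.75, 0.78 and 0.11 for Agt. For Agtr1a it was 0.38, 0.55, 0.83 and 0.48. In scan 4, with 8 strains, the Agt relation did not pass the exact permutation test (adjusted p = 0.875). Nor did Agtr1a in scan 2 (permutation test, adjusted p = 0.0798) or in scan 4 (exact permutation test, adjusted p = 0.586).

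The second comparison asked whether tolvaptan changed the genes' levels over the strains. Agt was 11.42 ± 0.40 (SD) in 179 Control animals, from 10.24 through 11.45 to 12.77, and 11.58 ± 0.41 in 175 Tolvaptan animals, from 10.34 through 11.59 to 12.95. The 2 distributions overlapped almost fully. Control strain means spanned 1.54, and the SD within strain and treatment was 0.26. Within strains the difference was positive in 34 of 45. Its unweighted mean was 0.17 ± 0.03 (SE), a 1.13-fold rise, with a 95% interval from 0.12 to 0.22. In limma the adjusted p was 1.07e-05, and by p-value Agt ranked 3 among the 14125 genes. The background was low, with 46 genes (0.326%) called higher over strains.

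The rise of Agt differed in size between scans. Within single scans it was 0.09 in scan 1 (adjusted p = 0.99999), 0.08 in scan 2 (0.860), 0.33 in scan 3 (1.09e-04), 0.20 in scan 4 (0.862) and 0.15 in scan 5 (0.995). It was positive in all 5, and of these limma fits the one in scan 3 alone passed. Whether the scans differ was not tested, and 38 of the 45 strains had all their arrays outside scan 1 in a single scan. Without scan 3 the mean was 0.14, and without scan 2 it was 0.10, and the call was lost in both refits. These refits left most strains of the omitted scan with 1 animal per group. Nearly all calls of other genes were lost in them too, so the lost call is not particular to Agt. Without the off-strain arrays the mean rise of Agt was 0.13 (adjusted p = 0.0115), and in the 26 strains with no such array 0.20 (adjusted p = 1.21e-04).

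Avpr1a did not pass the test over strains. It was 6.45 ± 0.86 (SD) in Control, from 3.53 through 6.51 to 8.21, and 6.42 ± 0.86 in Tolvaptan, from 3.97 through 6.53 to 8.42. The mean difference was -0.03 ± 0.07 (SE), positive in 20 of 45 strains, with a 95% interval from -0.17 to 0.10 (limma, adjusted p = 0.929). The second probe set gave 0.01 ± 0.06 (adjusted p = 0.983).

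Agtr1a also did not pass. It was 8.87 ± 0.39 (SD) in Control, from 7.70 through 8.93 to 9.75, and 8.86 ± 0.40 in Tolvaptan, from 7.35 through 8.93 to 9.57. The mean difference was -0.01 ± 0.03 (SE), positive in 24 of 45 strains, with a 95% interval from -0.08 to 0.05 (limma, adjusted p = 0.935). The interval for Agt lies above both of the other members' upper bounds, although the members were not tested against each other.

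Among the other genes of the renin-angiotensin system, none passed. The list held 16 genes, of which 12 including Agt and Agtr1a were tested, and Agt was the 1 called, against 0.326% of all genes called higher. The median difference over the 12 was -0.00, beside 0.00027 over all genes. Of the enzymes, Ace, which makes angiotensin II, was near background at 2.72 ± 0.25 (SD) in Control and differed by -0.02 ± 0.02 (SE). The aminopeptidase Enpep, which trims angiotensin II, was well measured at 8.34 ± 0.59 and differed by 0.07 ± 0.04 (adjusted p = 0.662). The renin receptor gene Atp6ap2 differed by 0.08 ± 0.03 (adjusted p = 0.397). Of the other receptors, Agtr1b at 2.42 ± 0.29 and Mas1, for angiotensin 1-7, at 1.98 ± 0.27 were dim in Control, and Agtr2 was above the array median in 0 arrays. Agtr1b differed by -0.05 ± 0.03 and Mas1 by -0.02 ± 0.03. Ren1 and Lnpep have no probe set of their own alone in the annotation used and gave no value.

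The other vasopressin and oxytocin receptors were dim in these livers. Avpr1b was 2.39 ± 0.26 (SD) in Control and the oxytocin receptor Oxtr 2.98 ± 0.24, and they differed by -0.00 ± 0.02 and -0.01 ± 0.02 (SE). Of the 7 tested genes of this system, 0 were called higher and 0 lower by limma, and 0 of the 7 had an unadjusted p under 0.05. Among 26 tested genes of Gq, calcium and glycogen signalling, through which both receptors act, 0 were called and 5 had an unadjusted p under 0.05, as had 9.56% of all genes tested. The lowest p-values were those of the glycogen synthase Gys2 (0.12 ± 0.04, adjusted p = 0.281), the receptor kinase Grk5 (-0.18 ± 0.07, 0.288) and the calcium channel Orai1 (-0.10 ± 0.04, 0.350).

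Of 8 tested genes for known regulators of Agt, 0 were called, and 2 had an unadjusted p under 0.05 beside the same 9.56%. The acute-phase factor Stat3 differed by 0.07 ± 0.03 (adjusted p = 0.404), the repressor Bhlhe40 by 0.12 ± 0.06 (0.477) and the NF-kappa B subunit Rela by -0.05 ± 0.03 (0.614).

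Of the markers of other cells and zones 3 passed over strains, 2 lower and 1 higher, beside 0.17% of all genes called lower and 0.326% called higher. Of 10 markers of sinusoidal endothelium, the scavenger receptor Stab2 fell by 0.19 (adjusted p = 0.00104). The mean level of the 10 ran from 6.29 to 7.62 in Control and from 5.54 to 7.83 in Tolvaptan. Of 10 periportal markers, Uroc1, which breaks down histidine, fell by 0.15 (adjusted p = 0.00196). That list's mean level ran from 9.19 to 10.42 in Control and from 9.09 to 10.35 in Tolvaptan. Of 5 pancreatic markers, Cela2a rose by 0.23 (adjusted p = 0.0385). In that list 3 differences were above 0 and 2 below, with a median of 0.03. Its mean level ran from 2.66 to 4.19 in Control and from 2.67 to 4.47 in Tolvaptan. Of 8 general hepatocyte markers 0 were called, and their mean ran from 11.45 to 12.65 in Control and from 11.52 to 12.63 in Tolvaptan. Of 10 stellate cell and fibroblast markers 0 were called by limma, while 9 differences were below 0, with a median of -0.07. An unadjusted p under 0.05 was found for 4 of them, beside 9.56% of all genes. Their mean ran from 4.78 to 5.93 in Control and from 4.51 to 5.98 in Tolvaptan. Differences were also below 0 in 9 of 10 periportal, 7 of 10 endothelial and 7 of 10 pericentral markers. The same held for 4 of 10 macrophage and 2 of 8 hepatocyte markers. The part of these markers in the rise of Agt was not tested.

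The third comparison asked whether the response differed between strains. For Agt the 45 differences ran from -0.30 in OR13140 to 1.01 in OR5119. The moderated F test of equal differences gave adjusted p = 0.235 in limma, so Agt did not pass, although its F exceeded that of 99.8% of genes. Only 3 genes (0.0212%) passed this test with all arrays. Without the 34 off-strain arrays Agt passed with adjusted p = 0.00667, in a fit where 26 genes did. Agtr1a (adjusted p = 0.756) and Avpr1a (adjusted p = 0.999) did not pass. The F of Avpr1a was lower than that of most genes, exceeding 1.63% of them.

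**Figure D2:**
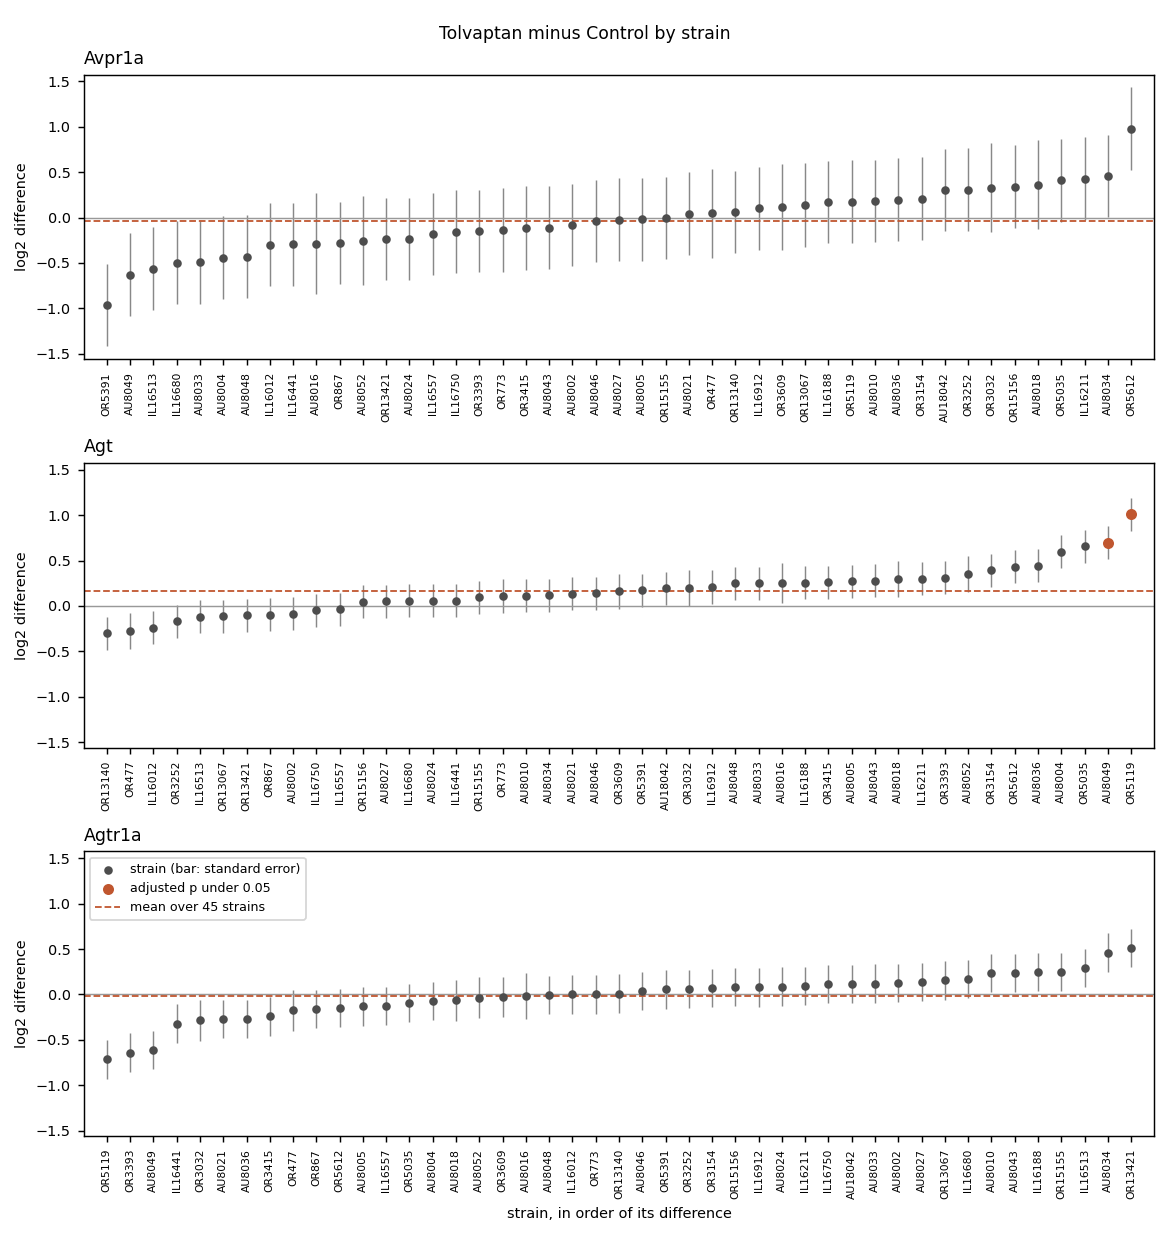
Tolvaptan minus Control on the log2 scale (y axis) in each of 45 strains (x axis, in order of the difference) for Avpr1a, Agt and Agtr1a, with standard errors as bars and the mean over strains as a dashed line. Agt was above 0 in 34 strains and was called in OR5119 and AU8049, and no strain was called for Avpr1a or Agtr1a.

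In single strains Agt was called in 2, both higher, with adjustment over genes within the strain and not over strains. In OR5119 the 4 Control animals had 10.53, 10.81, 11.00 and 11.19, the last from an off-strain array, and the 4 Tolvaptan animals 11.11, 11.73, 12.22 and 12.51. The groups overlapped by 1 animal. The difference was 1.01 ± 0.18 (SE), a 2.01-fold rise (limma, adjusted p = 1.11e-04), beside 1.9% of genes called in this strain in either direction. It was called with each of the 8 animals left out in turn, from 0.79 to 1.25. Without the off-strain arrays it was 1.06 (adjusted p = 1.44e-04).

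In AU8049 the Control animals had 11.38, 11.59, 11.72 and 11.78 in Agt and the Tolvaptan animals 11.46, 11.98, 12.86 and 12.95. Of the Tolvaptan animals, 2 stood far above Control, 1 just above and 1 within it. The difference was 0.69 ± 0.18 (SE), a 1.62-fold rise (limma, adjusted p = 0.00782), beside 5.4% of genes called in this strain. Without Tolvaptan animal 345 it was 0.49 (adjusted p = 0.457), and without Tolvaptan animal 346 it was 0.52 (adjusted p = 0.277). These are the 2 high animals, and the call rested on them both. Fitted on a strain's own 8 arrays, with no spread shared over strains, neither call was made (adjusted p = 0.999 in OR5119 and 0.489 in AU8049).

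In 3 strains every Tolvaptan animal lay above every Control animal in Agt, OR5035, AU8004 and AU18042, the last by 0.19 with 1 off-strain Control array. In OR5035 the Control animals ran from 11.25 to 11.50 and the Tolvaptan animals from 11.59 to 12.32, a difference of 0.66 ± 0.18 (SE, adjusted p = 0.246). In AU8004 they ran from 10.78 to 11.33 and from 11.48 to 11.96, a difference of 0.60 ± 0.18 (adjusted p = 0.334). These strains were picked out after their values were seen, and none of the 3 was called. The share of all genes that separate this way was not worked out, so the count is a description. At the other end, OR13140, the strain with the highest Control mean, differed by -0.30 ± 0.18 (adjusted p = 0.710).

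Mean Agtr1a was lower after tolvaptan in the 2 strains where Agt was called, without passing the test. In OR5119 its Control animals had 8.23, 8.53, 8.92 and 9.43, the last from the off-strain array, and its Tolvaptan animals 7.35, 8.09, 8.34 and 8.69. The difference was -0.71 ± 0.21 (SE, limma, adjusted p = 0.0504), and -0.48 (adjusted p = 0.321) without the off-strain arrays. It passed when Control animal 361 or 362 or Tolvaptan animal 365 or 366 was left out, with adjusted p from 0.00856 to 0.0328. In AU8049 the Control animals had 8.87, 8.94, 9.16 and 9.27 and the Tolvaptan animals 7.57, 7.86, 8.93 and 9.44. The 2 low animals, 345 and 346, are those with the highest Agt. The difference was -0.61 ± 0.21 (adjusted p = 0.0647). In OR5035 and AU8004, where Agt differed by 0.66 and 0.60, Agtr1a differed by only -0.10 and -0.07 in the fit without off-strain arrays.

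In OR3393, the strain with the highest Control mean of Agtr1a, the Control animals had 9.03, 9.06, 9.13 and 9.30 and the Tolvaptan animals 7.44, 8.61, 8.91 and 9.001. All 4 treated animals lay below all 4 Control animals. The difference was -0.64 ± 0.21 (SE, limma, adjusted p = 0.296), and without Tolvaptan animal 477, the one at 7.44, it was -0.30 (adjusted p = 0.9998). In the other direction, all treated animals lay above all Control animals in OR13421, by 0.51 (adjusted p = 0.520), and in AU8034, by 0.46 (adjusted p = 0.640). In each of these strains 2 of the 4 Control arrays were off-strain and held the lowest values, and without the off-strain arrays the differences were 0.25 and 0.07. How many of all genes separate fully within a strain was not worked out for Agtr1a either.

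**Figure D3:**
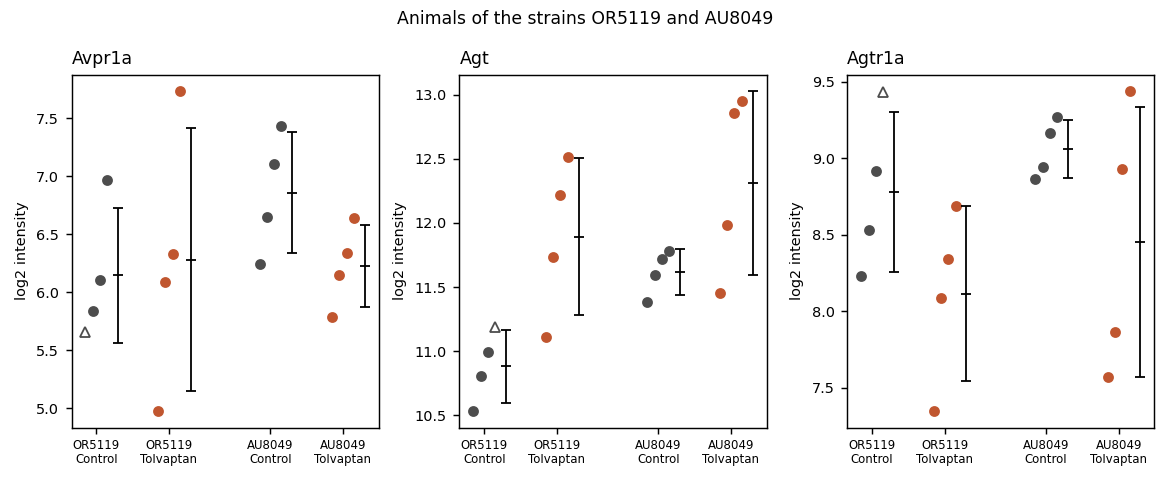
Log2 intensity (y axis) of Avpr1a, Agt and Agtr1a in each animal of OR5119 and AU8049 by treatment (x axis), with means and SDs as black bars and the off-strain array as an open triangle. Agt was called higher in both strains, and in AU8049 the 2 Tolvaptan animals above 12.5 in Agt are those below 8 in Agtr1a.

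Avpr1a differed most in OR5612 and OR5391, in opposite directions. In OR5612 the Control animals had 3.60, 4.14, 4.48 and 5.09 and the Tolvaptan animals 5.12, 5.17, 5.19 and 5.75, so all treated animals lay above all Control animals. The difference was 0.98 ± 0.45 (SE), with limma's unadjusted p = 0.0321 and adjusted p = 0.9998. The second probe set differed there by 0.42 (unadjusted p = 0.307). In OR5391 the Control animals had 5.40, 5.85, 6.32 and 6.57 and the Tolvaptan animals 3.97, 4.86, 5.47 and 5.96, with overlap. The difference was -0.97 ± 0.45 (adjusted p = 0.915), and -0.92 on the second probe set. Both strains were named for their size among 45, so these values are descriptions.

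Genes of other lists were also called in the 2 strains where Agt was called. Of all genes tested, 1.9% were called in OR5119 and 5.4% in AU8049, in either direction. In OR5119 the endothelial marker Stab2 fell by 1.23 (adjusted p = 4.43e-04) and the macrophage marker Cd68 rose by 2.08 (adjusted p = 1.12e-04), the 1 of 10 called in each list. The mean level of the 10 endothelial markers ran from 6.86 to 6.96 in Control and from 6.16 to 6.88 in Tolvaptan. That of the 10 macrophage markers ran from 5.97 to 6.67 and from 5.75 to 6.59. Cd68 went against most of its list, in which 8 of 10 differences were below 0 and the median was -0.46. The glycogen phosphorylase Pygl, which acts downstream of both receptors, fell by 0.74 there (adjusted p = 0.0306). Also lower in OR5119 were Uroc1 of 10 periportal markers, Cyp2e1 of 10 pericentral markers and Mylk of 3 tested smooth muscle markers. All 10 pericentral differences were below 0, with a median of -0.65 beside -0.00099 over all genes. The pericentral mean level ran from 8.00 to 8.77 in Control and from 7.70 to 8.11 in Tolvaptan. Of the endothelial differences 9 of 10 were below 0, and of the periportal ones 8 of 10.

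In AU8049 the acute-phase factor Stat3 rose by 0.66 (adjusted p = 0.0346), the 1 called of 8 regulators of Agt, whose mean level ran from 8.03 to 8.19 in Control and from 7.96 to 9.11 in Tolvaptan. The aminopeptidase Anpep fell by 0.90 (adjusted p = 0.0146). Of 26 genes of Gq and calcium signalling, the phospholipase Plcb3 fell by 0.83, the arrestin Arrb1 by 0.97 and the phosphorylase kinase subunit Phka2 by 0.75. Among 10 endothelial markers Lyve1 rose by 1.38, and Fcgr2b and Gpr182 fell by 0.81 and 1.14. Their mean ran from 6.85 to 6.93 in Control and from 6.54 to 7.02 in Tolvaptan. Of 5 bile duct markers Sox9 rose by 2.66, while 3 of the 5 differences were below 0 and their median was -0.22. Of 10 periportal markers Hal fell by 1.13. These counts stand beside 5.4% of all genes called in this strain. In the 8 hepatocyte markers 0 were called in either strain. The part of these genes in the rise of Agt was not tested.

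The members were then compared with each other over strains. Control means of Avpr1a and Agt had Pearson r = 0.46 over 45 strains (permutation p = 0.00154, adjusted p = 0.00277) and Spearman rho = 0.43 (permutation p = 0.00344, adjusted p = 0.00774). OR5612 and OR3609, at places 4 and 1 from the lowest in Agt, are the 2 strains farthest from the median of Avpr1a. Without them r was 0.32 (permutation, adjusted p = 0.0749), so the call rested on those strains. Within scans 1, 2, 3 and 4, r was 0.33, 0.14, 0.50 and 0.05, and none of these passed the permutation test, which was exact in scan 4. Control means of Agtr1a had r = -0.02 with Avpr1a (permutation p = 0.882, adjusted p = 0.882) and r = -0.13 with Agt (permutation p = 0.381, adjusted p = 0.526), with rho -0.02 and -0.11 (permutation, adjusted p = 0.912 and 0.592).

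The differences after tolvaptan of Agt and Agtr1a ran in opposite directions over strains. Pearson r was -0.50 (permutation p = 6.00e-04, adjusted p = 0.00135) and Spearman rho -0.40 (permutation p = 0.00707, adjusted p = 0.0127). OR5119 and AU8049 are the 2 strains farthest from the median of Agt, and without them r was -0.26 (permutation p = 0.0942, adjusted p = 0.170), so the call rested on these strains. Within scans 1, 2, 3 and 4, r was -0.30, 0.02, -0.75 and -0.55, and the permutation test passed in scan 3 (adjusted p = 0.00402). The differences of Avpr1a had r = 0.13 with those of Agt (permutation p = 0.409, adjusted p = 0.526) and r = 0.02 with those of Agtr1a (permutation p = 0.875, adjusted p = 0.882). Their rho was 0.17 and 0.02 (permutation, adjusted p = 0.377 and 0.912).

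**Figure D4:**
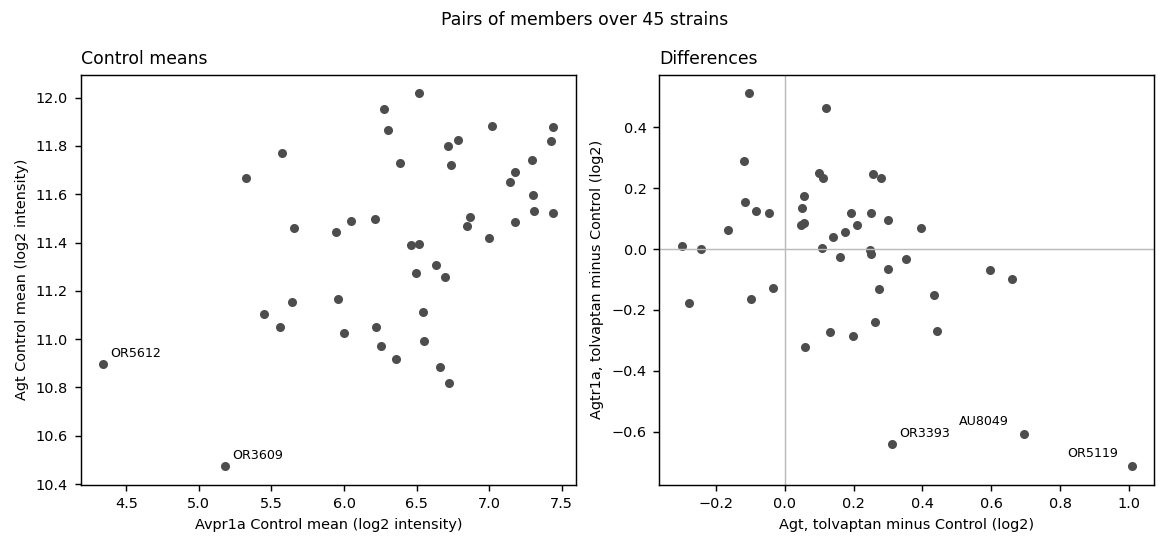
Each point is 1 of 45 strains. The left panel plots scan-adjusted Control means of Agt (y axis) against Avpr1a (x axis), both log2 intensity, r = 0.46, and the right panel plots tolvaptan minus Control of Agtr1a (y axis) against Agt (x axis), both log2, r = -0.50, with the strains that carry most of each relation named.

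The genes whose Control strain means were most like each member are given as a description, over 45 strains that share scans and preparation. For Avpr1a they were Rpp21 (r = 0.64), Adprhl2 (0.63), the ascorbate enzyme gene Gulo (0.62), Leprotl1 (0.62) and Polr2e (0.60). For Agt they were the fatty acid elongase Elovl1 (r = 0.61), Elof1 (0.60), 1700048F04Rik (0.59), Renbp, a renin-binding protein, (0.58) and Emb (0.58). For Agtr1a they were Cd1d1 (r = 0.65), the mitochondrial factor Tfam (0.63), Ptp4a2 (0.62), Elk4 (0.62) and Peli2 (0.62). In Tolvaptan strain means the same genes had r between 0.16 and 0.62, and of the 15 only Renbp had a higher r there (0.62) than in the Control means that chose it.

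The wide spread of Avpr1a between animals of 1 strain and treatment followed that of clock genes. Clock genes encode the transcription factors and targets whose RNA rises and falls over the day in liver, Arntl and Dbp at opposite times. Each array's deviation from the fitted level of its strain, treatment and scan was correlated over 354 arrays, a step added after seeing the data. The highest r with Avpr1a were those of the choline kinase Chka (0.69), the clock activator Arntl (0.62), the manganese exporter Slc30a10 (0.61), Tubb2a (0.60) and Dtx4 (0.59). The lowest were those of Pcsk4 (-0.56), the clock output gene Dbp (-0.56), the period gene Per3 (-0.54), the deubiquitinase Usp2 (-0.54) and the repressor Ciart (-0.54). Arntl thus stood second from the top of all genes tested, and Dbp, Per3, Usp2 and Ciart were among the lowest 5.

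Of 15 clock genes tested, 9 had an absolute r of at least 0.3 with Avpr1a, against 2.48% of all genes. The list was drawn up after Arntl, Dbp, Per3, Usp2 and Ciart had been seen at the extremes. Those genes count among the 9, so this count is no test. The other 4 were Tef (-0.46), Nfil3 (0.43), Per2 (-0.36) and Nr1d2 (-0.32). Nr1d2 was less stable, with 0.47 in scan 5 and -0.20 on the second Avpr1a probe set. Cry1 (0.27), Per1 (-0.25), Cry2 (-0.24), Hlf (-0.16), Clock (0.14) and Npas2 (0.06) did not reach 0.3. For Agt 0 of the 15 reached 0.3, against 2.97% of all genes, and for Agtr1a 2 did, Per2 (-0.33) and Usp2 (-0.32), against 4.25%. The relation with Avpr1a was alike in Control and Tolvaptan arrays, with r = 0.61 and 0.64 for Arntl and -0.52 and -0.59 for Dbp. In scans 1 to 5 taken singly, r ran from 0.53 to 0.73 for Arntl and from -0.63 to -0.54 for Dbp. Spearman rho over all arrays was 0.59 for Arntl and -0.53 for Dbp, and without the 2 arrays farthest from the median of Avpr1a r was 0.61 and -0.54. The second Avpr1a probe set gave 0.62 and -0.57. Over strains 0 of the 15 clock genes were called after tolvaptan by limma, and all 15 had adjusted p of at least 0.389. These correlations describe the same arrays and carry no test.

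**Figure D5:**
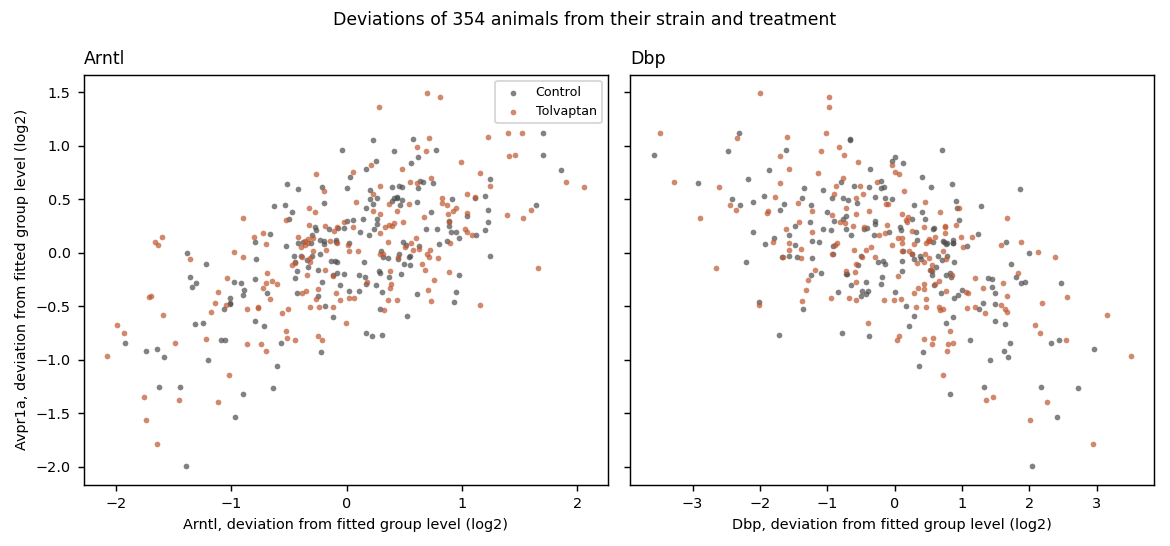
Deviation of Avpr1a (y axis) against that of Arntl (left) and Dbp (right, x axes), all in log2 units from the fitted level of the animal's strain, treatment and scan, for 354 animals coloured by treatment. Avpr1a rose with Arntl (r = 0.62) and fell with Dbp (r = -0.56), alike in both treatments.

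The genes of highest and lowest r with Agt and Agtr1a were others than those for Avpr1a. The clock genes Per2 and Usp2 still had r = -0.33 and -0.32 with Agtr1a. The genes with the highest r with Agt were Pla2g12a (0.56), the antiprotease Slpi (0.53), Dxo (0.49), Reep3 (0.49) and Coq8b (0.49). The lowest were the sulfotransferase Sult2a8 (-0.48), the transporter Abcg2 (-0.46), the urea cycle gene Otc (-0.45), Aldh1a1 (-0.45) and Kmo (-0.44). For Agtr1a the highest were the receptor gene Erbb3 (0.62), Hykk (0.59), the lysosomal lipase Lipa (0.58), the choline dehydrogenase Chdh (0.57) and Rfx5 (0.54). The lowest were Shb (-0.46), Zbtb21 (-0.45), Bhlhe40 (-0.45), Ripk4 (-0.45) and E130309D02Rik (-0.45).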

How the data were processed

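Liver RNA of 354 mice was measured on Affymetrix HT_MG-430 PM arrays. The deposited values are log2 intensities made by the authors with RMA in Affymetrix Expression Console, per the submitters' processing notes, and versions are not given in the sources used here. Whether the arrays were normalized in 1 run is also not given. Depth does not apply to arrays, and their number limits the precision.

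Groups came from the labels' strain and treatment. Probe sets with 1 gene symbol were named from the platform annotation, updated through RefSeq's GRCm38.p6 gene table (27494 of 27691 matched), while 493 had several symbols and 14376 none. Each gene was represented by its probe set of highest mean, kept if above the array median in at least 4 arrays. limma 3.58.1 in R 4.3.3 fitted 1 mean per strain and treatment plus scan, with Benjamini-Hochberg adjustment over 14125 genes and a threshold of 0.05. A gene "called" passed it. Scan-adjusted means are placed at the arrays' average scan. Relations used two-sided permutation tests with 100000 resamples, or exact ones under 10 strains, in numpy 2.4.6. The fit was tested on simulated data. No array repeated another's values. The labels treat each array as a separate animal.

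Genes were named by rule: each member's 3 highest and 3 lowest strains, the 2 strains of largest difference plus those called, the 5 most similar genes, and from each list all called genes or up to 3 of lowest p, with Avpr1b, Avpr2, Oxtr, Agtr1b, Agtr2, Ace, Ren1, Lnpep and Mas1 always named. One further gene of this rule is not reported here. Enpep, Atp6ap2, Alb, the strains AU8004, OR5035, AU18042 and AU8034, Agtr1a in AU8049 and OR13421, list genes called in single strains, and the clock genes and other genes of like deviation were named after their values were seen. The members and lists were chosen with earlier results of these data known.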

Additional observations from a re-analysis of the deposited data

Results flagged for a closer look

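A single animal stood apart in 2 of the 28 groups looked at for the named strains, those of 4 animals. Chance alone flags about 1 in 20 such groups. In AU8043 Control, animal 391 had an Avpr1a level of 3.53, far below the next animal at 6.01, which makes up 0.939 of the group's range against a critical ratio of 0.829. AU8043 was among the 3 strains lowest in Avpr1a. In OR5612 Tolvaptan, animal 277 had an Avpr1a level of 5.75 and the next 5.19, or 0.883 of the range. Without animal 277 the difference in OR5612 was 0.85 in place of 0.98. Neither array was off its labelled strain.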

How the results depend on the processing

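The Control strain differences of all 3 members passed under all 14 planned refits (15 with the second Avpr1a probe set) and with each strain left out. The Agt rise kept its sign under all 21 alternatives and passed with each strain left out (0.15 to 0.18). It did not pass without scan 2 (0.10) or scan 3 (0.14), or within scans 1 (0.0885), 2 (0.0753), 4 (0.20) and 5 (0.15). With strains as the unit it passed (adjusted p = 0.0389), and it passed without OR5119 and AU8049 together (0.14), an alternative chosen after seeing the data. Its strain dependence passed without off-strain arrays (range over strains 1.56). The cause was not tested. Within OR5119 and AU8049 the Agt calls (1.01 and 0.69) were lost when each strain was fitted on its own arrays, which leaves 8 arrays. Leaving out animals gave 0.79 to 1.25 and 0.49 to 0.95, and for Agtr1a in OR5119 -0.90 to -0.45.

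The uncalled differences changed sign as follows. Avpr1a was 0.0139 on its second probe set, 0.0085 without scan 4, 0.0305 within scan 3 and 0.12 within scan 5. Agtr1a was 0.0093 without scan 1, 0.11 within scan 2, 0.0089 within scan 4 and 0.0144 without OR5119 and AU8049. Over left-out strains it ran from -0.0266 to 0.00034, reached without OR5119.

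The count of genes called over strains, 70 in the fit reported, was 44 without off-strain arrays, 300 in strains with none, 158, 1, 0 and 34 without scans 1, 2, 3 and 5, and 18 with strains as the unit. Within scans 1 to 5 it was 0, 0, 32, 0 and 0. At unadjusted p under 0.05 in limma, 466 genes passed without scan 3, and 358, 865, 838 and 532 within scans 1, 2, 4 and 5. With each strain left out the count was 49 to 121, and it exceeded 1.5 times the reported count without IL16750 (106), OR13421 (120) and OR477 (121). The count for strain dependence, 3, was 18 over all probe sets, 26 without off-strain arrays, 11, 455, 196 and 5 without scans 1, 2, 4 and 6, and 1 to 8 with each strain left out. The Control count was 24704 over all probe sets, of which there are more.

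Of the relations, Avpr1a with Agt in Control means did not pass without the 2 farthest strains (0.32) or within scans 1 to 4 (0.33, 0.14, 0.50, 0.0474). Agt with Agtr1a in differences did not pass without the 2 farthest strains (-0.26) or in scans 1 (-0.30) and 4 (-0.55), and was 0.0200 in scan 2. Control against Tolvaptan means did not pass for Agt in scan 4 (0.11) or for Agtr1a in scans 2 (0.55) and 4 (0.48). Uncalled relations changed sign. Agt with Agtr1a in Control means was 0.0049 without the 2 farthest strains and 0.38, 0.11 and 0.30 within scans 2, 3 and 4. Avpr1a with Agtr1a was 0.0366, 0.40 and 0.44 there. In differences that pair was -0.0137 without off-strain arrays, -0.11 in scan 1 and -0.14 in scan 4. No paired analysis was possible because the labels give no replicate numbers shared by the groups.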
